A study of Mus musculus with 2 samples.

Results

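Cytokine genes of the IL-12, IL-6, IL-10 and TGF-β groups, 10 in all, were followed in monocytic myeloid-derived suppressor cells (M-MDSCs) from tumours: Il12a, Il23a, Il27, Ebi3, Il6, Il10, Il15, Osm, Lif and Tgfb1. They were chosen by name, as all array probes designed to a RefSeq transcript of one of these genes, and made up 10 of the 20653 genes that could be named on the array. Each was covered by 1 probe. Il12b, which encodes the subunit shared by IL-12 and IL-23, was not analysed here.

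M-MDSCs are immature monocytic cells that restrain T cells in tumours. They were isolated with a magnetic bead kit from subcutaneous tumours of 4T1, a mouse mammary carcinoma line, in female BALB/c mice (spelled BABL/c in the sample labels), which were 6 to 8 weeks old when obtained. All mice had received 1000000 4T1 cells after a day of starvation and were then kept for 16 days on a normal-salt diet (NSD; 0.4% NaCl in the chow, tap water) or a high-salt diet (HSD; 4% NaCl in the chow, 1% NaCl in the drinking water), and the comparison asks how cytokine transcripts of the cells differed between the diets. Equal numbers of cells of the mice of a diet were mixed before RNA extraction, and the RNA was labelled with Cy3 and hybridised to 1 Agilent mouse gene expression array per diet. Each value therefore stands for a pool of mice, no spread between mice could be estimated, and no test was possible. Where a group of cells contributes to such a pool, fewer cells of a type and less RNA per cell cannot be told apart.

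The cytokines fall into families by receptor and partner chain. IL-12, IL-23 and IL-27 are heterodimers: Il12a, Il23a and Il27 encode the alpha chains, Il12b the partner of the first pair, and Ebi3 the partner of the Il27 product; myeloid cells use them to steer T helper and natural killer cells. IL-6, oncostatin M (Osm) and leukaemia inhibitory factor (Lif) share the gp130 receptor chain, encoded by Il6st, and signal through STAT3, as does the anti-inflammatory cytokine IL-10. IL-15 is presented to lymphocytes on its own alpha receptor chain, and TGF-β1 is secreted in a latent form that has to be released before it acts through SMAD proteins.

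Promoter sequences are shown for 3 of the genes that span the range of the results, Il12a with the largest difference among those measured on both arrays, Il6 with a smaller one below the threshold used, and Ebi3 with signals nearly equal on both arrays. They are the 250 bases before each annotated RefSeq transcription start (mouse build GRCm38.p6, 5′ to 3′), and Il12a has 2 annotated starts. Capitals mark matches, on either strand, to the NF-κB motif or to the motifs TGANTCA (AP-1), TGGAAA (NFAT core) and TTGNNCAA (C/EBP).
Il12a, start 1 (chr3:68690394-68690643, + strand): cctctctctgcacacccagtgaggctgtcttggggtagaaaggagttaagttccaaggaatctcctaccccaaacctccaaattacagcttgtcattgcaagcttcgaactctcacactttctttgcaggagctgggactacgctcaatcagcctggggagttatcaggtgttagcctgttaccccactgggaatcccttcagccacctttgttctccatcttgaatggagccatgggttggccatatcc
Il12a, start 2 (chr3:68691174-68691423, + strand): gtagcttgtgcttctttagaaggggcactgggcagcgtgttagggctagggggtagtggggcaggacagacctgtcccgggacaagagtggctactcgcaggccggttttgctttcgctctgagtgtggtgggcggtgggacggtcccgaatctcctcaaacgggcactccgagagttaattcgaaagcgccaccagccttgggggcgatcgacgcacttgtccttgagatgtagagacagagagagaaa
Il6 (chr5:30012864-30013113, + strand): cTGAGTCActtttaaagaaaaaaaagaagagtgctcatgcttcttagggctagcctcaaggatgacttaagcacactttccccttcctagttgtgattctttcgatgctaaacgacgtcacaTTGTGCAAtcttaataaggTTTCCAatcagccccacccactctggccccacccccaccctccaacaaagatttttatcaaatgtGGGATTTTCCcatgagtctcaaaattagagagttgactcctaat
Ebi3 (chr17:55952373-55952622, + strand): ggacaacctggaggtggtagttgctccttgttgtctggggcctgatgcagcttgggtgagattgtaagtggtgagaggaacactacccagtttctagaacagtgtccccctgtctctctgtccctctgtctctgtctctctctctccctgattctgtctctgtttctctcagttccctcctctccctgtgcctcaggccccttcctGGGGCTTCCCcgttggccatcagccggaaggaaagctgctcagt
Neither Il12a window held a match. The Il6 window held all 4 motifs: NF-κB from -44 to -35 relative to the start, the NFAT core from -109 to -104 on the opposite strand, C/EBP from -128 to -121 and AP-1 from -249 to -243. In the Ebi3 window an NF-κB match lay at the same distance, from -44 to -35, and read as a match on both strands. Among 32851 mouse promoters of this length, 7.25% held the NF-κB motif, 6.75% the AP-1 motif, 18.6% the NFAT core and 5.65% the C/EBP motif, and a match is given only as a description of the letters. Of the other members, Lif and Tgfb1 also had a promoter sequence, and each held an NF-κB match, from -178 to -169 in Lif and from -140 to -131 in Tgfb1. The Lif window also held an AP-1 match from -228 to -222.

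Signals are given in intensity units of the scanner software after background correction. A log2 fold change is the HSD minus the NSD value after each array was scaled on its 75th percentile, and its error is the software's error of both spots carried through, or, for probes printed in 10 spots, the standard deviation (SD) between spots. These errors cover the measurement on the array and not the spread between mice. Levels of different probes are not comparable, since each probe binds with its own strength.

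Of the 10 genes, 9 had a signal well above background on at least 1 array. Scaled values were higher with the HSD for 7 of these and lower for 2, beside 8849 higher and 7463 lower over all 16312 genes compared. The genes at least 1.5-fold higher were 3, Il12a, Il10 and Il15, and 0 were lower by as much. Over all named genes, 9.86% of the 16312 that could be compared passed 1.5-fold on the higher side and 10.3% on the lower side. With a cyclic loess scaling in place of the 75th percentile, the share of higher genes among those past 1.5-fold in either direction moved from 48.9% to 38.5%, while the count of cytokine genes remained 3 and 0. That count was 0 and 0 under the normexp background correction described below. It was 2 and 0 when only probes well above background on both arrays set the 75th percentile. With the scaling used throughout, the median log2 fold change was 0.21 over the 9 cytokine genes and 0.045 over all genes. Next below the threshold among the cytokine genes measured on both arrays was Il6, at a log2 fold change of 0.39, and closest above it was Il15, at 0.61. Lif had a bound of -0.41.

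**Figure D1:**
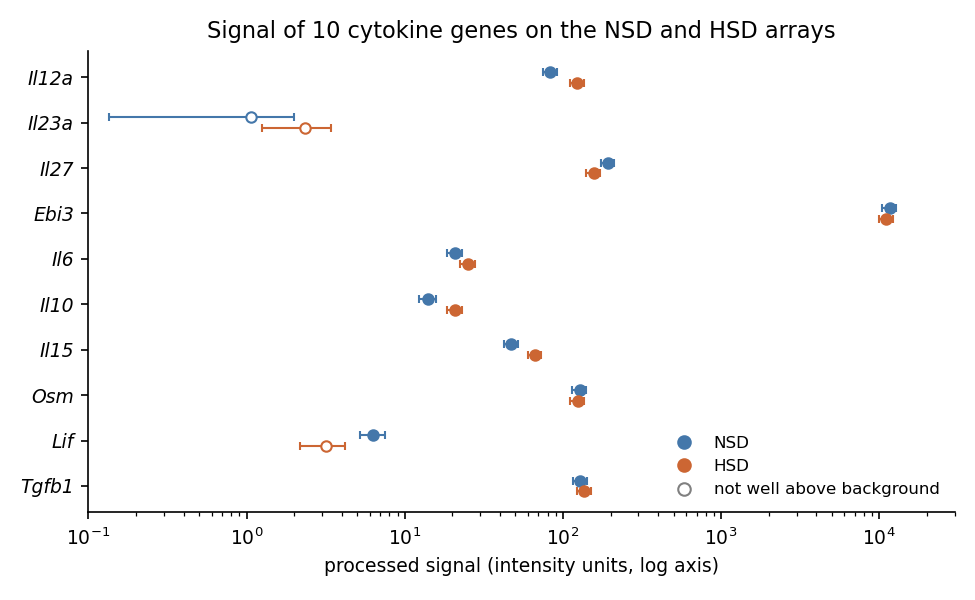
Processed signal (log axis, intensity units) of the 10 cytokine genes on the NSD array and the HSD array, with bars for the error given by the scanner software and open circles for signals not well above background. The HSD points of Il12a, Il10 and Il15 lie to the right of the NSD points, Ebi3, Osm and Tgfb1 nearly coincide, and Il23a is open on both arrays.

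Among the IL-12 family chains, Il12a, which encodes the alpha chain of IL-12, was the one member of the family past 1.5-fold. Its signal was 83.4 (NSD) and 123.3 (HSD), a log2 fold change of 0.68 ± 0.21 (1.60-fold higher). Probes with signals from 40 to 200 that were printed in several spots had a median SD between spots of 0.075 (73 probes, NSD) and 0.088 (62 probes, HSD) on the log2 scale, below the difference of Il12a. Under a normexp background correction, which adds an offset of 50 to every signal and so shrinks the differences of low signals, the value was 0.49 and no longer past 1.5-fold.

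Il27, the alpha chain of IL-27, had signals of 192.3 (NSD) and 156.1 (HSD) and a log2 fold change of -0.19 ± 0.20 (1.14-fold lower), no larger than its error. Ebi3, the partner of that chain, gave 11629 and 11070, a log2 fold change of 0.043 ± 0.20. Its sign depended on the scaling, with -0.078 under cyclic loess, -0.047 under quantile normalization and -0.050 in the deposited log2 values. Il23a, the alpha chain of IL-23, gave signals of 1.07 and 2.33 that were dim on both arrays (neither well above background), and no fold change is given. Of the 4 chains, then, 1 was past 1.5-fold, 2 were within their error and 1 was too dim to compare.

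Il10, a cytokine that dampens macrophage and dendritic cell activation, was measured in 10 spots per array. Its NSD spots ranged from 12.2 to 17.1 with a median of 13.9, and its HSD spots from 17.3 to 25.9 with a median of 20.4. The spots of the arrays did not overlap, and after scaling each of the 10 spot positions was higher on the HSD array, by log2 values from 0.17 to 0.97. The mean log2 fold change was 0.67 ± 0.25 (1.59-fold higher), and 8 of the 10 positions were past 1.5-fold. The spots repeat the same 2 pools of RNA and are not replicates of a diet. Separation of spots was also seen at smaller differences. The spots of Batf, a gene of the pathway lists, ranged from 454.8 to 504.4 (NSD) and from 536.1 to 610.0 (HSD), at 0.38 ± 0.08. Those of Tgfb3 and Stat3 overlapped. How often probes printed in several spots separate was not counted. The signal was low, and the normexp correction gave 0.21.

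Tgfb1, which encodes the TGF-β1 precursor, was also printed in 10 spots. Its NSD spots ranged from 121.5 to 137.2 with a median of 127.6, and its HSD spots from 122.6 to 142.3 with a median of 138.4. The spots of the arrays overlapped in part, and the log2 fold change was 0.21 ± 0.083 (1.15-fold higher). All 10 positions were higher after scaling, by 0.054 to 0.31, and 9 were higher before it. None was past 1.5-fold.

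**Figure D2:**
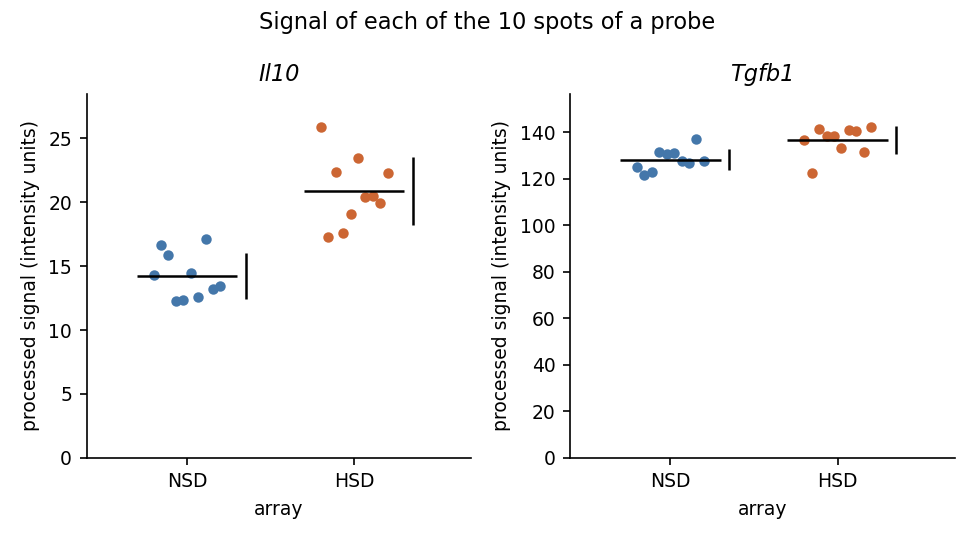
Processed signal (intensity units, axis from 0) of each of the 10 spots of the Il10 probe and of the Tgfb1 probe on the NSD and HSD arrays, with the mean as a horizontal line and the SD between spots as a vertical bar. The Il10 spots of the arrays do not overlap, from 12.2 to 17.1 against 17.3 to 25.9, whereas the Tgfb1 spots overlap in part.

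Of the gp130 cytokines, none was past 1.5-fold. Il6, which sustains myeloid suppressor cells and acute-phase responses, had signals of 20.7 (NSD) and 25.1 (HSD) and a log2 fold change of 0.39 ± 0.22 (1.31-fold higher); under normexp it was 0.089. Osm, a product of activated myeloid cells, had signals of 127.3 and 124.0 and a log2 fold change of 0.076 ± 0.21, which was smaller than its error. Lif had signals of 6.33 (NSD) and 3.19 (HSD), the latter not well above background. Set against the lowest signal that counted as above background there, Lif had a bound of 1.33-fold lower with the HSD. The error of its NSD signal, 1.13, is not included in this bound.

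Il15, which supports natural killer and memory T cells, had signals of 47.1 (NSD) and 66.4 (HSD). The log2 fold change was 0.61 ± 0.21 (1.52-fold higher). As for Il12a and Il10, the threshold of 1.5-fold, 0.58 on the log2 scale, lies within the error. It was 0.57 when the scaling used only probes well above background on both arrays, and 0.39 under normexp, both short of 1.5-fold.

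**Figure D3:**
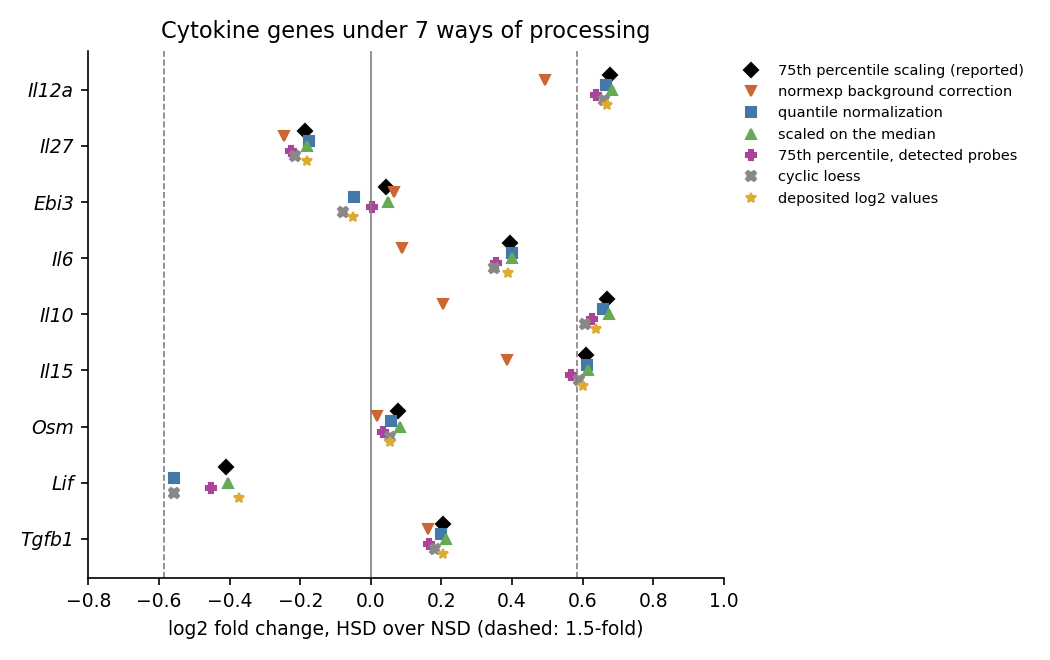
Log2 fold change (HSD over NSD) of the 9 cytokine genes that could be compared, under 7 ways of background correction and scaling, with dashed lines at 1.5-fold. The points of Lif are lower bounds of its size, and Lif has no point under normexp. Il12a, Il10 and Il15 stay above 0 in every setting and drop below 1.5-fold under normexp, Il15 also with the percentile of detected probes, and Ebi3 lies on both sides of 0.

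The receptors of these cytokines were compared next. Of 16 receptor genes, 15 could be compared, with 2 past 1.5-fold on the higher side, 2 past it on the lower side and a median log2 fold change of 0.058. By the brightest probe of each gene, the difference of greatest size was that of Il15ra, the chain that presents IL-15, with signals of 1957 (NSD) and 804 (HSD). Its log2 fold change was -1.17 ± 0.20 (2.25-fold lower), a second probe of the gene gave 24.7 and 12.9 (-0.83 ± 0.23), and the gene was past 1.5-fold in all 7 alternative background corrections, scalings and sources of values. Il15 and Il15ra thus had opposite signs. Il2rb, the beta chain that receives IL-15 and IL-2, had signals of 15.9 and 27.3 (0.89 ± 0.24), and the common gamma chain Il2rg 360.3 and 392.8 (0.24 ± 0.20).

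Il6st, which encodes the gp130 chain shared by the receptors for IL-6, Osm and Lif, had signals of 50.9 (NSD) and 24.0 (HSD), a log2 fold change of -0.97 ± 0.21 (1.96-fold lower). Il6ra, the chain specific to IL-6, was bright on both arrays, at 10906 and 11241, with 0.16 ± 0.20. Osmr had low signals of 6.73 and 9.71 (0.64 ± 0.33). The normexp correction took Il6st to -0.20, Il2rb to 0.24 and Osmr, past 1.5-fold in 3 of the 7 alternatives, to 0.17, so among the receptor genes past 1.5-fold only Il15ra kept its call there. The probes of Lifr disagreed: the brightest by mean gave 27.9 and 24.4 (-0.08 ± 0.22), and another 39.3 and 16.1 (-1.17 ± 0.23). The dimmest had a bound of 1.57-fold lower.

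The receptor chains for IL-10, IL-12 and TGF-β that could be compared were within 1.5-fold, as was Il27ra, which pairs with gp130 to bind IL-27. Il10ra had signals of 357.0 and 346.1 (0.07 ± 0.20), and Il10rb 1973 and 1701 (-0.10 ± 0.20). By their brightest probes, Il12rb1 (-0.06), Il12rb2 (-0.02), Il27ra (0.25), Tgfbr1 (-0.02), Tgfbr2 (0.06) and Tgfbr3 (0.19) gave log2 fold changes close to their errors or below them, and Il23r was dim on both arrays. Second probes gave 0.38 ± 0.21 for Il12rb1, -0.38 ± 0.22 for Tgfbr1 and 0.11 ± 0.20 for Tgfbr2, and that of Il12rb2 was dim on both arrays.

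**Figure D4:**
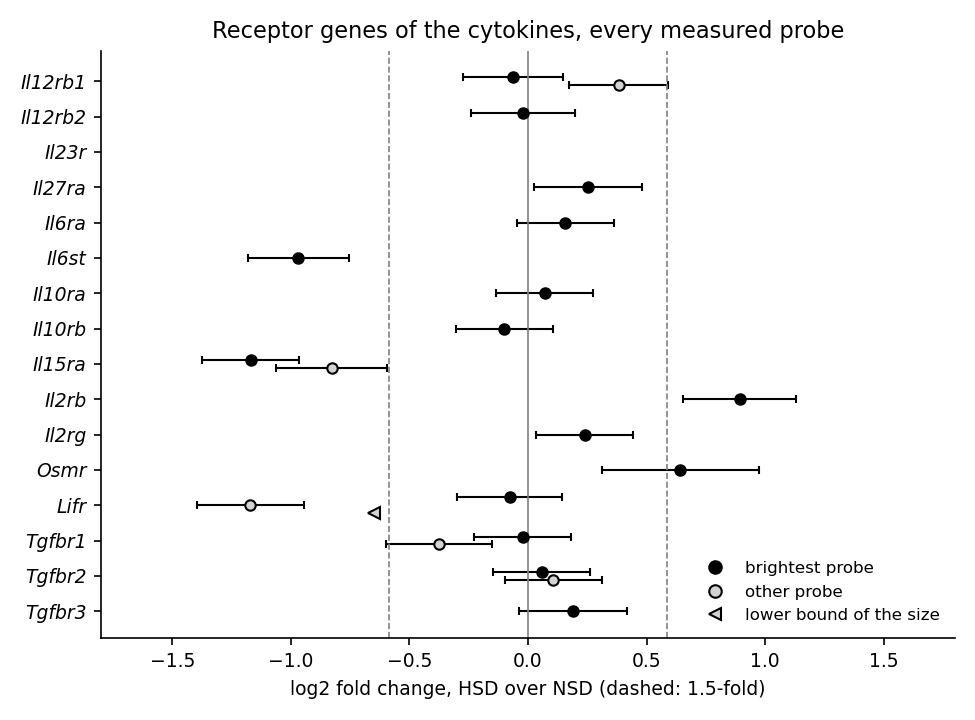
Log2 fold change (HSD over NSD) of each measured probe of the receptor genes, with bars for the error given by the scanner software, black circles for the brightest probe of a gene, grey circles for its other probes, and dashed lines at 1.5-fold. A triangle marks the bound of the dimmest Lifr probe. Both probes of Il15ra and the probe of Il6st lie left of 1.5-fold lower, and Il2rb and Osmr lie right of 1.5-fold higher. The 3 probes of Lifr are spread apart, and Il23r has no point.

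Of 15 other cytokines of the same families, 14 had a probe, 3 were dim on both arrays, and 11 could be compared, with 1 past 1.5-fold in each direction and a median of 0.23. Il24, an IL-10 family member, had signals of 32.8 (NSD) and 5.84 (HSD), a log2 fold change of -2.37 ± 0.35 (5.18-fold lower), and -0.50 under normexp. Ctf1, a gp130 cytokine, had signals of 4.67 (NSD), not well above background, and 8.05 (HSD), 1.87-fold higher. Its 9 spots ranged from 3.05 to 6.94 (NSD) and from 6.44 to 10.2 (HSD) and so overlapped, and normexp gave 0.16. Tgfb3 gave 28.7 and 26.8 over 10 spots (0.01 ± 0.19), and Tgfb2 10.4 and 6.66 (-0.53 ± 0.32).

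Of 13 genes for Janus kinases, STATs and SMADs, 0 passed 1.5-fold on the higher side, and their median was 0.11. Stat3, through which IL-6 and IL-10 signal, had signals of 5056 over 9 spots (NSD) and 5440 over 10 spots (HSD) (0.22 ± 0.07). Of 12 genes that STAT3 is known to induce, 2 were past 1.5-fold higher and 1 lower, with a median of 0.30. Socs3, which encodes the feedback inhibitor of gp130 signalling, had signals of 1515 (NSD) and 4177 (HSD), a log2 fold change of 1.58 ± 0.20 (2.98-fold higher) and 1.40 under normexp. Nfil3 followed with 2840 and 4013 (0.61 ± 0.20), and Junb was lower with 98.5 and 56.6 (-0.68 ± 0.21). Under normexp both were within 1.5-fold, Nfil3 at 0.39 and Junb at -0.36, and Nfil3 was past it in 2 of the 7 alternatives.

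On the TGF-β side, 10 of 12 genes for the storage and release of latent TGF-β could be compared, 0 higher and 2 lower than 1.5-fold, with a median of -0.083. Thbs1, thrombospondin 1, which can activate latent TGF-β, had signals of 600.2 (NSD) and 79.7 (HSD), a log2 fold change of -2.80 ± 0.20 (6.96-fold lower) and -2.10 under normexp. Mmp14, a membrane protease, had 140.8 and 55.7 (-1.22 ± 0.21). Nrros, which tethers latent TGF-β1 to myeloid cells, had 6272 and 4496 (-0.37 ± 0.20), within 1.5-fold. Of the TGF-β-responsive genes, 11 of 13 could be compared, with 3 past 1.5-fold higher, 2 lower and a median of 0.26. The direction in which TGF-β changes each gene was not used, so these counts do not measure TGF-β signalling. Id1 (950 and 1707, 0.96 ± 0.20), Ski (47.2 and 84.3, 0.95 ± 0.21) and Pmepa1 (29.9 and 49.4, 0.84 ± 0.21) were higher. Id2 (10033 and 3269, -1.50 ± 0.20) and Smad6 (91.4 and 46.2, -0.87 ± 0.21) were lower. Id1 and Id2 kept their calls under normexp, at 0.62 and -1.48, whereas Ski (0.31), Pmepa1 (0.44) and Smad6 (-0.40) did not.

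The 13 transcription factors known to act on these cytokine genes had a median of 0.085, with 1 gene past 1.5-fold higher and 3 lower. Maf, which drives Il10 in macrophages and T cells, had signals of 1409 (NSD) and 264 (HSD), a log2 fold change of -2.30 ± 0.20 (4.93-fold lower). A link between Maf and Il10 in these cells was not tested. Atf3, a repressor of Il6 and Il12b, gave 587 and 217 (-1.32 ± 0.20), and Batf3 47.9 and 20.4 (-1.12 ± 0.22). Under normexp Maf gave -2.14, Atf3 -1.10 and Batf3 -0.41, the last within 1.5-fold. Nfil3 was the higher gene. The NF-κB genes Rela (0.14 ± 0.20), Nfkb1 (0.16 ± 0.20) and Rel (0.49 ± 0.21) were within 1.5-fold. Over all genes, 8849 of the 16312 compared had a higher scaled value with the HSD. All 11 genes for factors that bind cytokine mRNAs did, with a median of 0.28. Past 1.5-fold were 2 of them, Zc3h12a (regnase-1), which degrades Il6 mRNA, with 429.7 and 597.0 (0.59 ± 0.20), and Tia1 (0.59 ± 0.21), whose second probe gave -0.32 ± 0.21. Both were within 1.5-fold under normexp, at 0.52 and 0.33, and of the 7 alternatives Zc3h12a was past it in 2 and Tia1 in 4. The sign of Rc3h2 turned under normexp, and those of Rc3h1 and Zfp36l2 under at least 1 other setting.

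**Figure D5:**
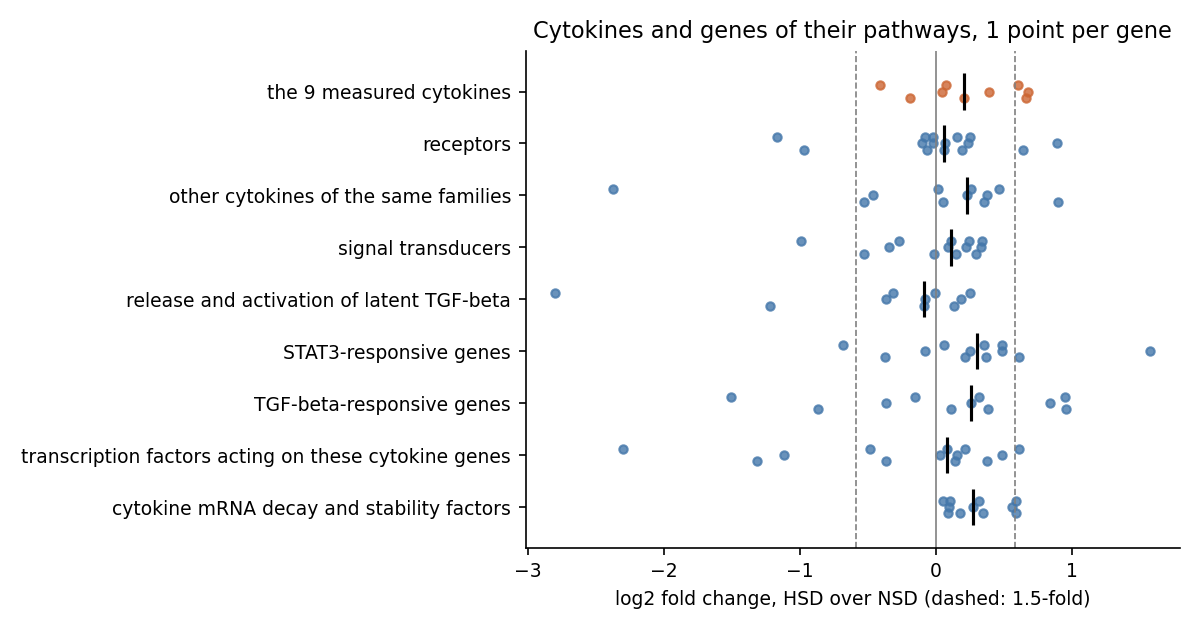
Log2 fold change (HSD over NSD) of the 9 cytokine genes that could be compared and of the genes of 8 pathway lists, 1 point per gene (its brightest probe), with vertical bars at the medians and dashed lines at 1.5-fold. Genes dim on 1 array are at their bound, except Ctf1, which is at the ratio of its signals. The medians lie between -0.083 and 0.30, and single genes such as Thbs1, Il24 and Maf lie far to the left and Socs3 to the right.

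Of 39413 probes, 71.9% (NSD) and 72.4% (HSD) were well above background, with 75th percentiles of 252 (NSD) and 233 (HSD). The M-MDSC markers Itgam (31564 and 31043) and Ly6c1 (51811 and 48478) were bright on both, and of 7 monocyte and M-MDSC markers Cd14 was past 1.5-fold higher (0.82) and Fcgr1 (-3.68) and Ccr2 (-0.78) lower. Neutrophil markers were bright as well, and 0 of 8 were past 1.5-fold. Among them were S100a8 (57914 and 56478) and the granule and neutrophil genes Ltf (51766 and 51993), Retnlg (36061 and 34389) and Mmp8 (31624 and 28048). The summed, unscaled signal of the 8 neutrophil markers was 350876 (NSD) and 339266 (HSD). That of the 7 monocyte and M-MDSC markers was 102640 and 96898.5. Macrophage markers were at least 1.5-fold lower with the HSD in 5 of 7 genes, beside 10.3% of all genes compared. Among them was Mrc1 (134.3 and 5.49, -4.50 ± 0.32). C1qb went the other way, within 1.5-fold (50.4 and 58.4, 0.33 ± 0.21). C1qa was not well above background on the HSD array, and its call was lost under normexp (-0.074). The summed, unscaled signal of the macrophage markers was 14188 (NSD) against 8678 (HSD). Of 7 carcinoma markers, 3 were at least 1.5-fold higher, at signals of 25.0 or less, and the summed signal of the 8 on the array was 215 (NSD) and 201 (HSD), with Krt19 dim on both arrays. Under normexp these 3 were within 1.5-fold, Epcam at 0.23, Krt8 at 0.17 and Krt18 at 0.34. Dendritic cell markers had 2 of 7 higher and 1 lower, and a summed signal of 14730 and 14251. Under normexp Itgax (0.65) kept its call, whereas Clec9a (0.23) and Cd209a (-0.24) did not. T and NK cell markers had 0 higher and 2 of 8 lower (3470 and 3183), and fibroblast markers 1 higher and 2 of 5 lower (170 and 147). The T cell calls Il7r (-1.62) and Cd3e (-0.75) held under normexp. The fibroblast calls Pdgfrb (0.17), Col3a1 (-0.051) and Dcn (-0.032) did not. B cell (7079 and 7965), endothelial (502 and 518) and erythroid markers (10883 and 11303) had 0 past 1.5-fold. Since levels of different probes are not comparable, these sums do not measure the share of a cell type. Siglech (13705 and 13214) made up most of the dendritic sum and Hba-a1 (10273 and 10843) most of the erythroid sum. Adgre1 (6723 and 4252) and Apoe (7119 and 4337) made up most of the macrophage sum. The part of other cell types in the differences of the cytokine genes was not tested.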

How the data were processed

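Scanner output was deposited for both arrays. Its processed signals are intensities, made by the authors with Feature Extraction 11.0.1.1, which subtracts background, and come with flags for signals well above background and for outlier spots. They also deposited normalized log2 values made with GeneSpring, whose normalization method is not named in the sources used here. Control and outlier-flagged spots were left out, log2 signals were averaged per probe, and each array was scaled by subtracting its 75th percentile over 39413 probes. A probe counted as well above background when at least 50% of its spots did. Where it was so on 1 array, the other array was given its own signal or the lowest one above background, whichever was higher. With the latter the fold is a bound, which leaves out the error of the signal above background. The probe with the highest mean log2 signal stood for a gene.

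Names came from RefSeq transcripts of GRCm38.p6 (69.1% of probes). Every member, each receptor, and, of the other pathway lists, genes past 1.5-fold or examples at a list's ends were to be named (1 signal transducer is not reported here); other genes and the markers named were chosen after their values were seen. The members and lists were chosen with earlier results of these data known. With 1 array per diet, both on the same slide, no test was run, and precision is limited by the number of arrays. Counting of fold changes was tested on simulated data. Normexp used the deposited median signal and background intensities. Normalization alternatives were computed with limma 3.58.1 in R 4.3.3, and all else in Python 3.11.15 (pandas 2.3.3, numpy 2.4.6; figures, matplotlib 3.10.9).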

Additional observations from a re-analysis of the deposited data

How the results depend on the processing

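The count of 3 cytokine genes at least 1.5-fold higher was 0 with normexp and 0 with a 2-fold threshold. It was 2 when the 75th percentile was taken over detected probes (Il15 at 0.57), and 4 with no filter on dim probes, where Il23a counted at 1.24. The count of 0 genes lower was 1 with no filter, which counted Lif at -0.87. It was 3 and 0 under quantile normalization, scaling on the median, cyclic loess, the deposited log2 values, flagged spots kept, probes above background on both arrays, and the median over probes. The median over probes could not change the count, because each cytokine gene had 1 probe. Nor could the filter on both arrays, because Il12a, Il10 and Il15 were well above background on both. The median over the cytokine genes ranged from 0.13 to 0.30 over the 11 alternatives. These medians do not all cover the same genes. Lif had no value under normexp (0.13) or with the filter on both arrays (0.30), and Il23a was added with no filter (0.30). Over all probes, 3030 were higher and 2639 lower, against 961 and 923 with normexp, 793 and 1039 with a 2-fold threshold, and 6010 and 3757 with no filter. No scaling moved the median of all genes by more than 0.1. Signals near background limit the values of Lif and Il23a. No paired analysis was possible because each diet had 1 array.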

Other observations

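Some genes of the pathway and marker lists, chosen after their values were seen, had probes that gave different differences. Skil, a repressor of SMAD signalling, gave a log2 fold change of 0.32 ± 0.08 at its brightest probe (2328 over 10 spots and 2685 over 9 spots) and of 1.30 ± 0.21 at a dimmer probe (73.1 and 166.8). Kdr, an endothelial receptor, gave 0.28 ± 0.20 at one probe (150.1 and 168.7) and -2.49 ± 0.25 over 10 spots of another (124.2 and 20.4). Stat5b gave 0.09 ± 0.20 and -0.41 ± 0.20. The cytokine genes had 1 probe each, so no such comparison could be made for them.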
